A study of Drosophila melanogaster with 6 samples.

Results

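The ecdysone receptor and its early response factors are 10 transcription factor genes of Drosophila melanogaster that carry the signal of the moulting hormone: EcR, usp, Eip74EF, Eip75B, br, Hr3, Hr4, Hr39, ftz-f1 and Eip78C. They were chosen by name, without a cutoff on their own values. Earlier results of these data were known when they were chosen. All 10 were present in each of 6 RNA-seq libraries, among 16195 genes named through their RefSeq transcripts, and all 10 were among the 11599 genes that averaged at least 1 CPM, a count scaled to a common library size. The study asked what 5 genes of the newt Notophthalmus viridescens, called candidates 1 to 5, do when expressed in flies. Libraries C1, C2, C3, C4 and C5 came from larvae of the genotypes Tubulin Gal4 with UAS-C1, UAS-C2, UAS-C3, UAS-C4 or UAS-C5, each transgene a single copy placed by ϕC31 integrase at a fixed landing site. The Control library came from Tubulin Gal4/S-T larvae, which carry the same ubiquitous driver without a candidate, although its title calls it wild type. RNA was taken from whole larvae of the 3rd instar, 4 days after egg laying, in every genotype. All 5 comparisons share the Control library. Each genotype had 1 library, so a difference below is between libraries and has no replicate check, and the genotype, the exact age of the larvae and the library cannot be told apart. The labels used here do not say how many larvae, or of which sex, went into a library.

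The steroid 20-hydroxyecdysone binds a heterodimer of the nuclear receptors EcR and Ultraspiracle (usp), the fly homologue of the retinoid X receptor. At the end of larval life a hormone pulse makes this receptor switch on the early genes Eip74EF, Eip75B and br, whose products in turn act on the early-late nuclear receptor genes and on late tissue genes. The early-late receptor Hr3 helps to induce ftz-f1 once the hormone has fallen, and Eip75B protein binds Hr3 and blocks it. In the salivary gland the glue protein genes are active in the mid 3rd instar and are shut off at the pulse, after which the late puff genes of the Eig71E cluster come on.

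Levels were read as CPM after TMM scaling for one gene across libraries, and as the deposited RPKM values, scaled by transcript length and depth, for different genes within a library. Deposited totals lay between 75131812 counts (C2) and 86975388 counts (C1). A gene or start site was called higher or lower where its CPM ratio to Control was at least 2-fold and the exact 95% Clopper-Pearson interval of the ratio excluded 1. These intervals, and the floor of 3 counts used for a library below it, cover counting error only. Libraries also differed in what else the larvae contained. The 6 testis and male RNAs summed to 14.6 CPM (C1), 19.6 (C2), 18.0 (C3), 2400 (C4) and 15.8 (C5), against 1173 CPM in Control, with none at 0 in Control and 2 under 3 counts in C1. All 5 muscle genes were called higher in C2, summing to 16768 CPM, and lower in C3, summing to 1025 CPM, against 4297 CPM in Control. All 5 larval cuticle genes followed the same split, with 34854 CPM in C2 and 393.7 CPM in C3, against 7286 CPM in Control. Fat body storage genes were present in every library, from 28150.5 CPM (C4) to 100355 CPM (C2), against 52925 CPM in Control. The part of these differences in the results on the 10 genes was not tested. In RNA from whole larvae, fewer cells of a type and less RNA per cell cannot be told apart.

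Some of the 10 genes met the call in C2, C3 and C4, and none did in C1 or C5. In C2 the early-late genes Hr3, Hr4 and Eip78C were lower while EcR and ftz-f1 were higher. In C3 EcR and Eip75B were lower while Hr3 was higher. In C4 Eip74EF, Hr4 and Eip78C were lower. Set against all 11599 measured genes, C2 had 2 of the 10 called higher (8.94% of all genes) and 3 lower (20.0%), which is 50% of the members called, against 29.0% of all genes. C3 had 1 of 10 called higher (6.02% of all genes) and 2 lower (21.8%), near the 27.9% of all genes called in either direction. C4 had 0 called higher (8.97% of all genes) and 3 lower (3.16%), against 12.1% of all genes called in either direction. In C1 0 of 10 were called, against 23.1% of all genes (5.10% higher and 18.0% lower). In C5 0 of 10 were called, against 23.4% of all genes (4.83% higher and 18.6% lower). The shares over all genes also count genes of testis and male RNA. All 6 of those listed were called lower in C1, C2, C3 and C5, and none was in C4. Their part in these shares was not tested. The median log2 ratio of the 10 genes to Control was 0.33 in C1 and in C5, against 0.05 and 0.03 over all genes. In C2 it was -0.47, against -0.03 over all genes, in C3 -0.12 against -0.01, and in C4 -0.55 against 0.06. Of all the genes called in C4, 74.0% were higher, and 84.5% were with plain CPM.

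**Figure D1:**
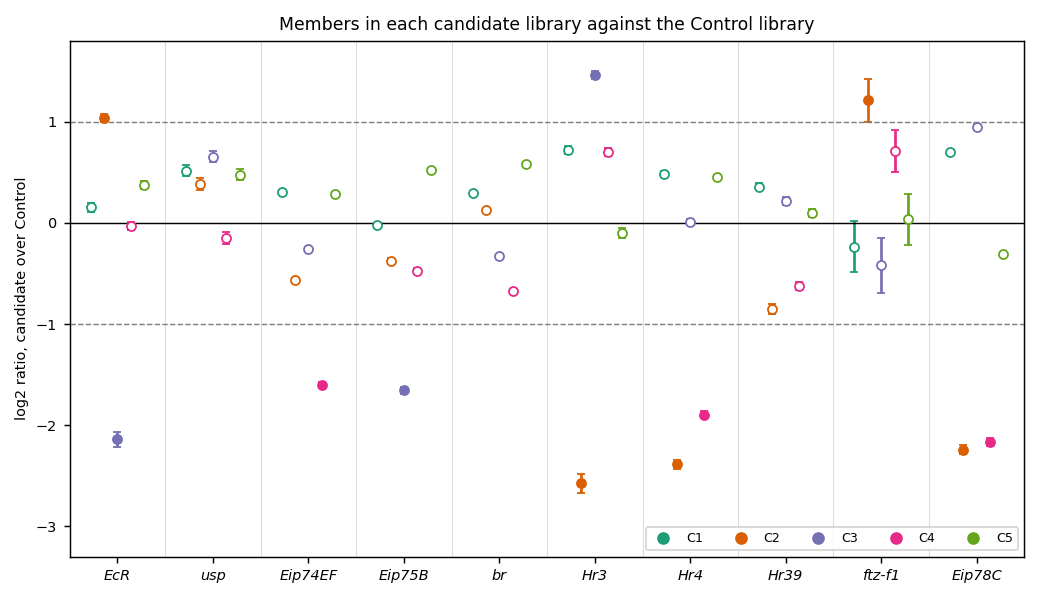
Log2 ratio of each candidate library to Control for the 10 genes, from TMM-scaled CPM. Points are libraries C1 to C5, bars are exact 95% intervals of the counts, dashed lines mark a 2-fold difference and filled points are those called; C2 and C4 lie low for Hr4 and Eip78C, and C3 lies alone low for EcR and Eip75B.

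The genes differed much in how far apart the 6 libraries stood. The highest library was 16.4 times the lowest for Hr3, 9.15 times for Eip78C, 9.02 times for EcR and 7.33 times for Hr4, but 1.75 times for usp. The median over the 10 genes was 4.14, against 1.92 over the measured genes. Of the measured genes, 82.4% had a smaller range than Hr3, 80.0% than Eip78C and 79.9% than EcR. The share was 78.6% for Hr4 and 43.6% for usp. Per length, br was the most abundant of the 10 in every library, between 151 RPKM (C4) and 296 RPKM (C5), with 229 RPKM in Control. Its product Broad is the zinc-finger factor that commits the larva to pupal development. The least abundant in every library was ftz-f1, between 0.375 RPKM (C3) and 1.06 RPKM (C2), with 0.575 RPKM in Control. Between these ends the order by RPKM changed with the library. Eip78C was the next most abundant after br in C1, C3 and Control, with 118, 142 and 82.7 RPKM, whereas Eip75B was next in C2, C4 and C5, with 51.5, 61.6 and 96.2 RPKM.

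**Figure D2:**
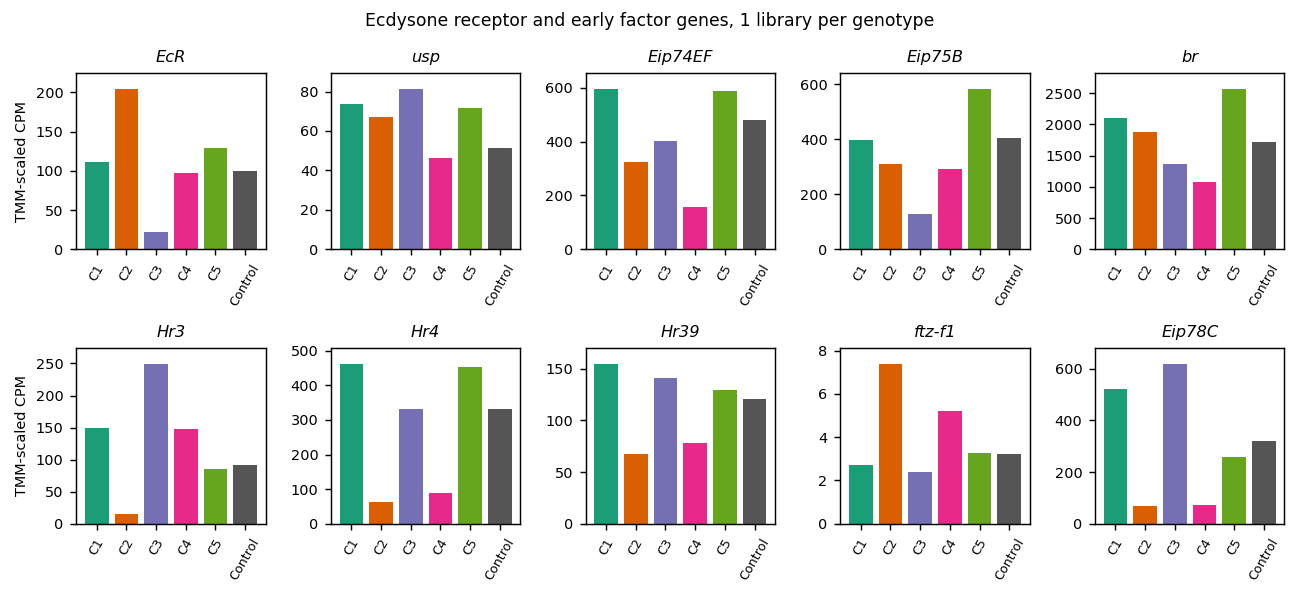
TMM-scaled CPM of the 10 genes, 1 panel a gene and 1 bar a library, C1 to C5 and then Control, on axes from 0. Control lies inside the range of the candidate libraries for all 10 genes, and C2 is lowest for Hr3, Hr4, Hr39 and Eip78C while C3 is lowest for EcR, Eip75B and ftz-f1.

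The receptor came first in order of action. EcR (chromosome 2R, 6087873 to 6169087, minus strand, dm6) was at 111 CPM (C1), 204 (C2), 22.6 (C3), 97.6 (C4) and 129 (C5), against 99.6 CPM in Control. C2 was the highest library and C3 the lowest, while C1, C4 and C5 lay close to Control. In C3 EcR was 4.41-fold lower, a log2 ratio of -2.14 (interval -2.21 to -2.07). The C2 value was 2.05-fold higher, a log2 ratio of 1.03 (interval 1.00 to 1.07), and it lay at the limit of the call: with plain CPM the log2 ratio was 0.74 and with RPKM 1.00, under the limit. Its partner usp (chromosome X, 2038798 to 2042311) stood at 73.6 CPM (C1), 67.1 (C2), 81.1 (C3), 46.5 (C4) and 71.6 (C5), against 51.5 CPM in Control. Both partners were measured in every library, and only EcR met the call. In C3 EcR reached 3.91 RPKM and usp 28.1 RPKM, against 21.9 and 20.1 RPKM in Control. The gene usp overlaps Actn on the same strand and CG4313 on the other, so some of its counts are uncertain.

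EcR is read from separate promoters that give receptor isoforms with different amino-terminal domains. The files give each RefSeq transcript a count and an RPKM value, and the transcript length they imply was matched to the annotation, which placed the start of 59 of the 60 transcripts of the 10 genes. Transcripts starting within 500 bases of each other were summed. The 9 genes with several starts had 30 start sites, of which 27 averaged at least 1 CPM, while the 4 transcripts of Hr39 share 1 start and are covered by its gene values. These splits rest on how the upstream software shared reads among overlapping transcripts. The most used EcR start, that of EcR-RB, EcR-RC and EcR-RG, had 84.8 CPM (C1), 172 (C2), 12.5 (C3), 75.6 (C4) and 102 (C5), against 78.6 CPM in Control. Its value was 6.31-fold lower in C3. The middle start, of EcR-RD and EcR-RE, had 16.3 CPM (C1), 12.3 (C2), 7.62 (C3), 11.5 (C4) and 15.6 (C5), against 15.0 CPM in Control. It did not meet the call with TMM factors from all genes, but its log2 ratio of -0.98 in C3 was further from 0, down to -1.11, under 4 other scalings, which called it lower. The middle start therefore made up 41.9% of the RPKM of EcR in C3, against 17.7% in Control, and 6.29% in C2. The upstream start of EcR-RA had 20.1 CPM in C2 and 2.51 in C3, against 6.05 in Control, a 3.32-fold higher and a 2.41-fold lower value.

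Eip74EF (chromosome 3L, 17558672 to 17619325, minus strand) encodes ETS-domain factors from a distal promoter unit, E74A, and a proximal one, E74B. In cultured larval organs E74B is known to be induced at lower hormone levels than E74A and to be shut off at higher ones. As a whole gene Eip74EF stood at 594 CPM (C1), 325 (C2), 401 (C3), 158 (C4) and 586 (C5), against 481 CPM in Control. C4 was the lowest library, 3.04-fold below Control with a log2 ratio of -1.60 (interval -1.63 to -1.58). The C2 value was not far enough from Control for a call. Its starts, taken apart, differed in opposite directions there.

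The distal start of Eip74EF, of the transcripts Eip74EF-RA, Eip74EF-RC and Eip74EF-RE, was at 478 CPM (C1), 93.2 (C2), 349 (C3), 63.4 (C4) and 442 (C5), against 389 CPM in Control. C2 and C4 were far below the other 4 libraries, 4.18-fold and 6.14-fold below Control. The proximal start, of Eip74EF-RB and Eip74EF-RD and 42.7 kb downstream, was at 116 CPM (C1), 232 (C2), 52.7 (C3), 94.9 (C4) and 143 (C5), against 91.2 CPM in Control. It was 2.54-fold higher in C2, and its C4 value lay beside Control. The distal start thus held 25.7% of the RPKM of the gene in C2 and 36.8% in C4, but 78.4% in C1, 86.6% in C3 and 72.8% in C5, against 79.0% in Control. C2 and C4 are the libraries in which the proximal unit held the larger share. A gene with 1 start called higher and another called lower was uncommon: among 1973 genes with several starts, 2.94% had this in C2. Eip74EF was the member that had it there. No member had it in C1, C3 or C5, where 1.67%, 4.16% and 1.62% of these genes did.

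**Figure D3:**
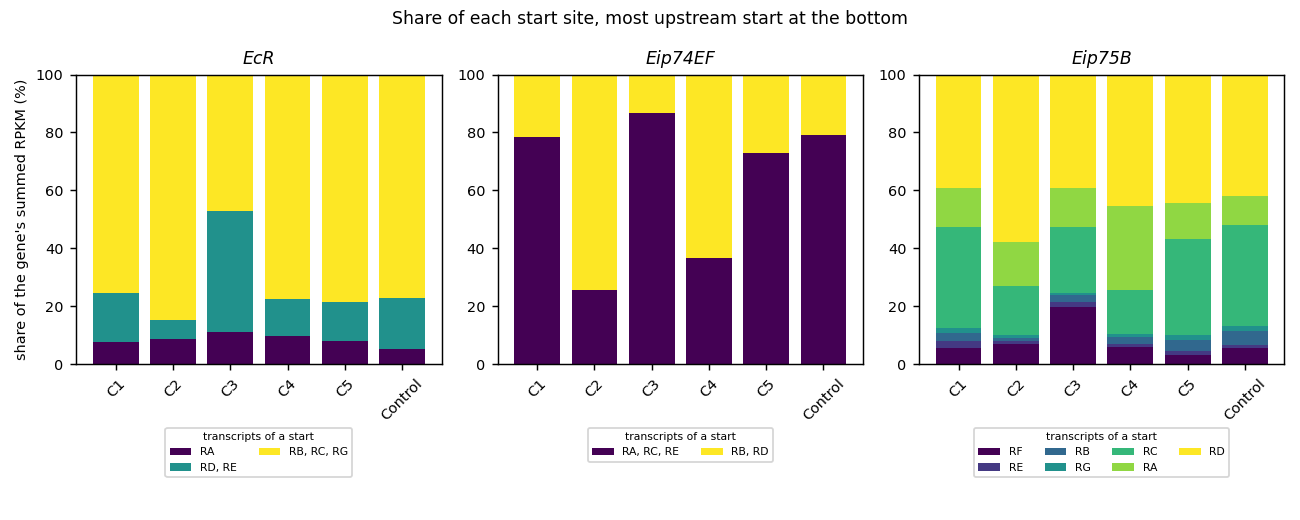
Share in percent of the summed RPKM of EcR, Eip74EF and Eip75B that came from each start site, stacked from the most upstream start at the bottom, for libraries C1 to C5 and then Control. The distal Eip74EF share is 25.7% in C2 and 36.8% in C4, against 79.0% in Control, and the middle EcR start holds 41.9% in C3.

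Eip75B (chromosome 3L, 17950953 to 18064696) makes heme-binding nuclear receptors of the Rev-erb type. It stood at 398 CPM (C1), 311 (C2), 128 (C3), 291 (C4) and 581 (C5), against 404 CPM in Control. Only C3 met the call, 3.15-fold lower with a log2 ratio of -1.66 (interval -1.69 to -1.62). Of its 7 starts, 6 were called lower in C3. The exception was the most upstream one, of Eip75B-RF, with 38.3 CPM in C3 against 38.2 in Control, so that its share of the RPKM of the gene was 19.8% in C3 and 5.74% in Control.

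The start of Eip75B-RC had 158 CPM (C1), 63.0 (C2), 30.5 (C3), 51.0 (C4) and 225 (C5), against 162 CPM in Control. It was 2.57-fold lower in C2, 5.30-fold lower in C3 and 3.18-fold lower in C4. By contrast, the start of Eip75B-RA had 62.7 CPM (C1), 59.8 (C2), 19.6 (C3), 102 (C4) and 91.0 (C5), against 48.8 CPM in Control. C4 was its highest library, 2.09-fold above Control, while in the same library the starts of Eip75B-RB, Eip75B-RG and Eip75B-RC were lower. Starts called in opposite directions occurred in 0.963% of the genes with several starts in C4, and Eip75B was the member among them. That share is over 1973 genes with 4424 measured starts. Eip75B alone has 7, and more starts give more room for opposite calls. The start of Eip75B-RB had 10.4 CPM (C1), 2.18 (C2), 2.62 (C3), 6.44 (C4) and 20.0 (C5), against 17.2 CPM in Control, a 7.89-fold lower value in C2.

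br (chromosome X, 1575132 to 1664869) was at 2106 CPM (C1), 1872 (C2), 1366 (C3), 1078 (C4) and 2562 (C5), against 1714 CPM in Control. The libraries were ordered C5, C1, C2, Control, C3, C4 from high to low, and none was 2-fold from Control. Its main start, shared by 7 transcripts, kept between 68.2% (C5) and 76.6% (C2) of the RPKM of the gene, with 71.1% in Control. The most downstream start, of br-RM, had 59.2 CPM (C1), 66.8 (C2), 17.8 (C3), 24.9 (C4) and 63.8 (C5), against 39.2 CPM in Control. It was 2.20-fold lower in C3. The start of br-RI had 3.63 CPM in C4 against 10.7 in Control and was 2.95-fold lower. Mur2B lies over br on the other strand and had between 6.20 and 8.17 CPM, far under the level of br.

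The Broad isoforms share a core and differ in the zinc-finger pair at their end, so the transcripts were also summed by where their coding sequence ends, a grouping chosen after their values were seen. The most abundant end, of br-RL, had 987 CPM (C1), 946 (C2), 639.8 (C3), 596 (C4) and 1108 (C5), against 857 CPM in Control. It held between 30.9% (C5) and 42.9% (C4) of the RPKM of br, with 37.6% in Control. The end of br-RA was 2.09-fold lower in C3, and it held 5.82% of the RPKM of br there, against 9.54% in Control. The end of br-RP was a minor one, with 4.69 CPM in C3, 3.84 in C4 and 35.6 in C5, against 13.4 in Control. It was 2.86-fold lower in C3 and 3.49-fold lower in C4 but 2.65-fold higher in C5.

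Hr3 (chromosome 2R, 10203995 to 10237348), the ROR-type receptor that helps induce ftz-f1, differed most between libraries. It stood at 149.6 CPM (C1), 15.3 (C2), 249.9 (C3), 148 (C4) and 84.7 (C5), against 90.9 CPM in Control. C3 was its highest library, 2.75-fold above Control with a log2 ratio of 1.46. C2 was its lowest, 5.95-fold below Control with a log2 ratio of -2.57 (interval -2.67 to -2.48). The upstream start of Hr3-RD had 31.5 CPM (C1), 3.98 (C2), 67.8 (C3), 48.2 (C4) and 18.2 (C5), against 22.7 CPM in Control. It was 2.12-fold higher in C4, whereas the downstream start of Hr3-RA, Hr3-RF and Hr3-RH had 97.3 CPM in C4 against 68.0 in Control and met no call there. Both starts were called in C2 and C3, in the direction of the whole gene. CG12912 lies within Hr3 on the same strand, and the counts of the start of Hr3-RC, 245 in C4 and 19 in Control, may belong to it.

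Hr4 (chromosome X, 1941940 to 2007956) is a nuclear receptor of the germ cell nuclear factor type. It had 463 CPM (C1), 63.2 (C2), 333 (C3), 88.5 (C4) and 452 (C5), against 330.2 CPM in Control. C2 and C4 stood apart below the other 4 libraries. They were 5.23-fold lower (log2 ratio -2.39, interval -2.43 to -2.34) and 3.73-fold lower (log2 ratio -1.90, interval -1.93 to -1.86) than Control. The minor downstream start of Hr4-RE and Hr4-RF, 50.4 kb from the main one, had 6.35 CPM (C1), 1.65 (C2), 9.33 (C3), 1.54 (C4) and 9.46 (C5), against 3.92 CPM in Control. It was 2.38-fold higher in C3 and 2.41-fold higher in C5, where the main start was at 323 and 443 CPM against 326 in Control. PIG-K, at 18.3 to 28.2 CPM, overlaps Hr4 on the other strand.

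Eip78C (chromosome 3L, 21226609 to 21266503), another Rev-erb type receptor of an early-late puff, split the libraries in the same way. It was at 522 CPM (C1), 67.8 (C2), 620.3 (C3), 71.5 (C4) and 259 (C5), against 321 CPM in Control. C2 was 4.73-fold lower and C4 4.49-fold lower, with log2 ratios of -2.24 (interval -2.29 to -2.20) and -2.17 (interval -2.20 to -2.13). The C3 value, the highest, was 1.93 times that of Control and under the limit of a call. Nearly all of the gene came from the start of Eip78C-RB. The upstream start of Eip78C-RA, Eip78C-RD and Eip78C-RE had 659 counts (C1), 0 (C2), 1154 (C3), 166 (C4) and 35 (C5), against 589 counts in Control. Against the floor of 3 counts it was at least 142-fold lower in C2. It was 13.7-fold lower in C5, where the gene as a whole met no call, 3.80-fold lower in C4 and 2.38-fold higher in C3.

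Hr39 (chromosome 2L, 21237250 to 21259675), a receptor related to Ftz-f1 in its DNA-binding domain, was at 155 CPM (C1), 67.0 (C2), 141 (C3), 78.5 (C4) and 129.5 (C5), against 121 CPM in Control. C2 and C4 were again its lowest libraries, though neither met the call. With plain CPM the C2 log2 ratio was -1.15 and Hr39 was called lower there. The competence factor ftz-f1 (chromosome 3L, 18750607 to 18801309), which acts in the mid-prepupa after the larval stages sampled, was low throughout. It had 226 counts (C1), 495 (C2), 182 (C3), 516 (C4) and 246 (C5), against 295 counts in Control, or 2.72, 7.41, 2.40, 5.23, 3.28 and 3.20 CPM. C2 was its highest library, 2.31-fold above Control with a log2 ratio of 1.21 (interval 1.00 to 1.42), and 0.91 with plain CPM. In C2 Hr3 was thus at its lowest where ftz-f1 was at its highest.

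**Figure D4:**
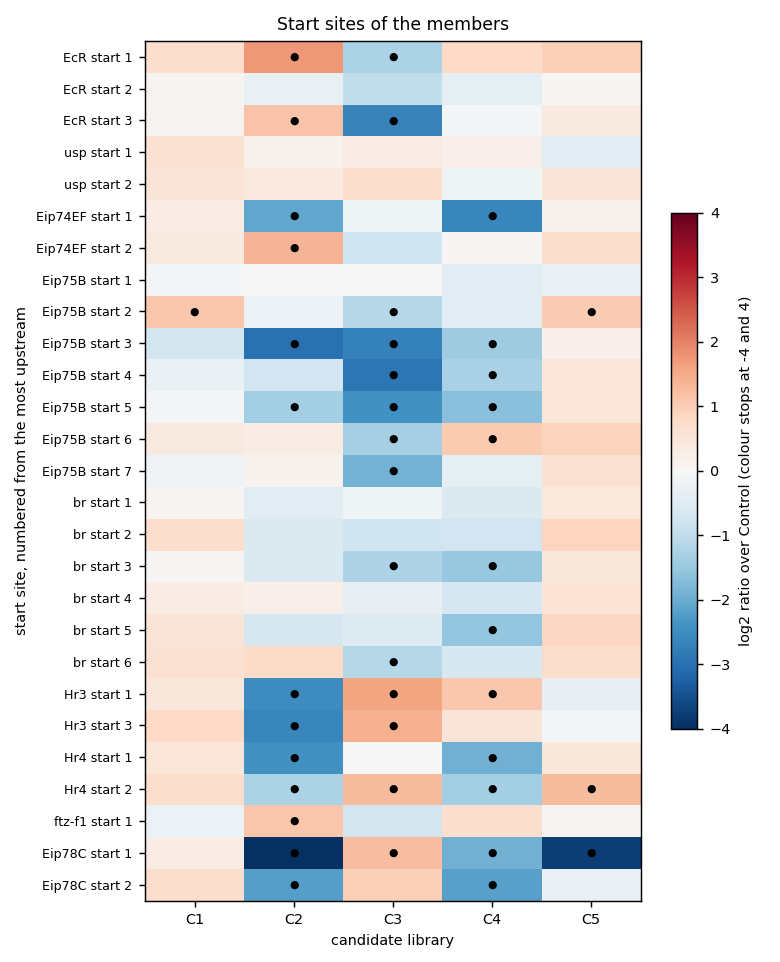
Log2 ratio to Control of the 27 measured start sites of the 9 genes with several starts (all members but Hr39) in libraries C1 to C5, as colour that stops at 4 either way; starts of a gene are numbered from the most upstream and dots mark calls. Opposite colours stand within Eip74EF in C2 and within Eip75B in C4, and the upstream Eip78C start is darkest in C2 and C5.

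Counted over the 27 measured starts of the 9 genes with several starts, 1 was called higher and 0 lower in C1, where 19.0% of the starts of genes with several starts were called. C2 had 4 higher and 9 lower (29.4%), C3 had 4 higher and 10 lower (29.7%), and C4 had 2 higher and 10 lower (13.4%). In C5 2 were higher and 1 lower (17.7%). Starts of the same gene are not separate genes: those lower in C3 all belonged to EcR, Eip75B and br, most of them to Eip75B. The call of the Eip75B-RE start as higher, at 9.97 CPM in C1 and 9.61 in C5 against 4.77 in Control, lay at the limit and was kept by 1 and 0 of 4 other scalings. All starts called lower in these counts kept that call under the 4 scalings.

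Other genes of the hormone pathway were read by list. Of all measured genes, 5.10% (C1), 8.94% (C2), 6.02% (C3), 8.97% (C4) and 4.83% (C5) were called higher. Called lower were 18.0% (C1), 20.0% (C2), 21.8% (C3), 3.16% (C4) and 18.6% (C5). These shares are the background for each list below. Of 9 measured genes for making, importing and breaking down ecdysteroids, 1 was called higher in each candidate, and 2 were lower in C3 and in C4. Both of these were shd, the enzyme that makes 20-hydroxyecdysone, and Cyp18a1, an enzyme that inactivates it. In C3, 2 of 9 lower was near the share over all genes, so that count gives no result about the list. The gene shd had 7.52 CPM in C3 and 27.6 CPM in C4, against 66.8 CPM in Control. Cyp18a1 had 2.12 CPM in C3, 5.02 in C4 and 51.9 in C5, against 13.2 in Control, and in C5 it was the gene called higher. The gene called higher in C1, C2 and C4 was dib, a prothoracic gland enzyme, at 3.72, 4.92 and 3.09 CPM against 1.27 in Control. In C3 it was Oatp74D, the ecdysone importer, at 148 CPM against 71.3 in Control. The median log2 ratios of this list lay between 0.28 (C3) and 0.63 (C1) in 4 candidates and at -0.27 in C4.

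None of the 6 measured receptor cofactors, among them the coactivator tai and the corepressor Smr, met the call in any candidate, with median log2 ratios between -0.09 (C4) and 0.34 (C5). Of 12 other nuclear receptors and ecdysone-responsive factors, 1 was called higher in each of C1, C2 and C4 and 3 in C3, while 2 were called lower in C2; in C5 none met the call. Their median log2 ratios lay between 0.13 (C2) and 0.62 (C3). Eip93F, the early gene tied to death of the larval salivary gland, was among those called in 4 of the candidates. It was at 59.0 CPM (C1), 8.11 (C2), 79.9 (C3), 42.4 (C4) and 13.9 (C5), against 18.7 CPM in Control, higher in C1, C3 and C4 and lower in C2. Hr38 was called higher in C2 and C3, at 4.80 and 2.70 CPM against 0.597 in Control. Of 14 measured ecdysone-inducible genes with other products, C2 had 4 called higher and 2 lower and C3 had 2 higher and 1 lower. C4 and C5 had 1 in each direction, and C1 had 0 in both. Those lower in C2 were ImpE1 and ImpE3, imaginal disc genes, at 48.0 and 23.6 CPM against 132 and 53.7 in Control. Among those higher in C2 were MsrA and Edg91, at 490 and 7.89 CPM against 187 and 2.47 in Control. ImpL1 was higher in C3 and C4, at 5.44 and 12.2 CPM, and lower in C5, at 0.413 CPM, against 0.890 in Control.

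Among tissue genes at the end of the cascade, the glue genes stood furthest from Control in C2 and C3, by median log2 ratio. The late puff genes did so in C3 and C4. Of 10 salivary glue genes, 3 were called higher in C1, 10 in C2, 2 in C4 and 4 in C5, while 8 were called lower in C3. Of these, ng1 and ng2 passed the filter on mean CPM through C2 alone, at 9.46 and 14.1 CPM, which favoured their calls there. The calls of ng2 in C1 and C4 rested on 73 and 31 counts, against 5 in Control. Sgs3, a major glue protein, had 5958 CPM (C1), 11776 (C2), 125 (C3), 5157 (C4) and 11665 (C5), against 5560 CPM in Control. The list's median log2 ratio was 1.43 in C2 and -4.86 in C3. Of 9 measured Eig71E late puff genes, 8 were called higher in C3 and 8 in C4, with median log2 ratios of 7.68 and 9.12 (genes at 0 in Control set at the floor), and 3, 1 and 3 in C1, C2 and C5. The filter on mean CPM favoured the calls and medians of these C3 and C4 comparisons. Eig71Eb, Eig71Ec, Eig71Ed, Eig71Ef, Eig71Eh and Eig71Ei passed it by those libraries alone, being under 1 CPM elsewhere. Eig71Ej and Eig71Ek, also listed, stayed under 1 CPM throughout and were left out. Above 1 CPM in every library, Eig71Ea had 4.06 CPM (C1), 2.78 (C2), 336 (C3), 391 (C4) and 3.43 (C5), against 1.64 CPM in Control. The exception in C3 and C4 was Eig71Ee, known to be active in the mid 3rd instar salivary gland as well. It was lower in C1, C3 and C4, at 2312, 88.6 and 1595 CPM against 5473 in Control. Eig71Eb was called lower in C2 and C5, on 6 and 3 counts against 22 in Control. The calls of Eig71Ed as higher in C1, C2 and C5 rested on 24, 40 and 20 counts, against 7 in Control. C3 therefore had low glue and high late puff levels, and C4 had Sgs3 near Control with high late puff levels. C2 had high glue levels with Eig71Ea at 2.78 CPM, against 1.64 CPM in Control. In C5 Sgs3 was also high, at 11665 CPM, with Eig71Ea at 3.43 CPM. The muscle, cuticle and male RNA levels given above differ among these same libraries.

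**Figure D5:**
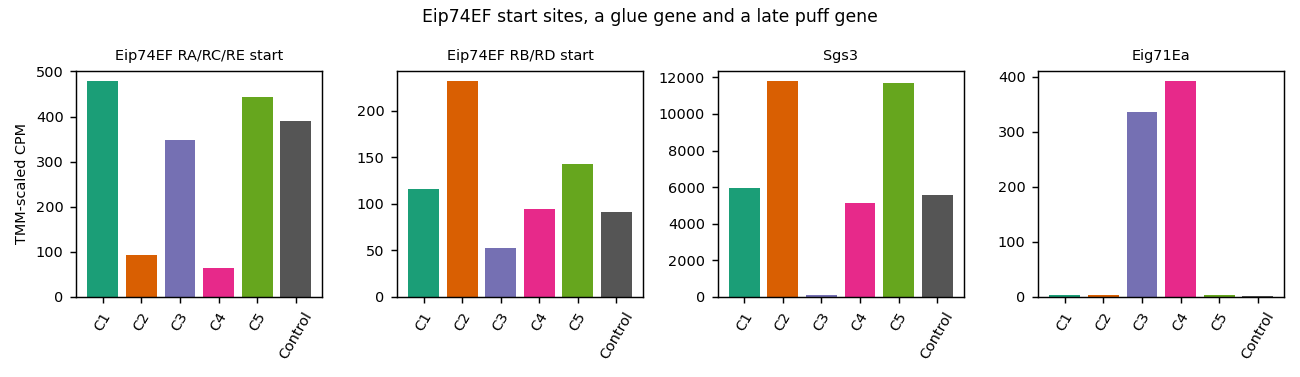
TMM-scaled CPM of the distal (RA/RC/RE) and proximal (RB/RD) starts of Eip74EF, of the glue gene Sgs3 and of the late puff gene Eig71Ea, 1 bar a library, C1 to C5 and then Control. The distal start is low in C2 and C4, Sgs3 is low in C3, and Eig71Ea is high in C3 and C4.

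To find which genes ran most like a member, the log2 profiles over the 6 libraries were centred and compared by their root mean square difference among genes averaging at least 5 CPM. These likenesses describe 6 libraries and no more. EcR was nearest to hebe (difference 0.09), CG14300 and alpha-Est9. Eip74EF was nearest to NtR (0.16), Eip75B to Cln3 (0.13), br to CG12773 (0.05), usp to Antp (0.03) and Hr39 to peb (0.10). Hr4 ran nearest to SP1029 (0.22), which was also the third gene nearest to Eip78C, after spz3 (0.27) and Nepl19. Hr3 was nearest to CG15756 (0.27) and ftz-f1 to Npc2b (0.18). Between members the smallest difference was that of usp and br (0.36). Hr4 and Eip78C differed by 0.51, but Eip78C ranked 23 among the genes nearest to Hr4, whereas br ranked 4734 among those nearest to usp.

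The 5 candidate libraries were also fitted together against Control, the only comparison with degrees of freedom left, 4 in number. The spread in it is that between 5 different genotypes. In edgeR's quasi-likelihood test with Benjamini-Hochberg adjustment 0 of 11599 genes were called, 117 had an unadjusted p under 0.05, and DESeq2 called 40 higher and 21 lower. The 10 genes had log2 fold changes between -0.24 (Eip75B) and 0.51 (Hr3), and none was called. The lowest adjusted p among them was 0.994. Their standard errors lay between 0.32 (usp) and 1.38 (Eip78C). These were derived as the absolute log2 fold change over the square root of the test's F statistic. Without C4, 49 genes were called higher and 1897 lower, none of them a member, with a lowest adjusted p of 0.211 for the members by edgeR.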

How the data were processed

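Total RNA of whole larvae was sequenced as paired-end reads after removal of ribosomal RNA with a stranded kit, per the labels' protocols. Reads passed through bcl2fastq, TopHat and Partek with build dm6, per the submitters' processing notes. Which versions and which strand option served for counting is not stated in those notes, so genes overlapping on opposite strands may share counts. The deposited files hold 1 expected count and 1 RPKM value per RefSeq transcript (34966 transcripts, 6 libraries), both made by the authors. Transcripts were assigned to genes by RefSeq accession (33027, or 94.5%); the 1939 others, with 0.0796% to 0.136% of the counts, were left out. Expected counts were summed per gene or start site and rounded, and RPKM was summed unchanged. Deposited counts ranged from 75131812 to 86975388 per library.

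Start sites came from transcript lengths implied by count over RPKM, matched within 1 base to the annotation; this gave the right length for 8531 of 8615 genes with 1 transcript (99.0%). TMM factors came from all genes. Candidate libraries were compared with Control by fold and exact interval, as the report states, with no test. The 5 candidates together were tested with edgeR 4.0.16 (limma 3.58.1, R 4.3.3) over the 11599 genes averaging 1 CPM or more, at an adjusted p of 0.05, with DESeq2 1.42.0 as an alternative; the code was tested on simulated data. All 10 members were named in each comparison. From each pathway list the text drew on up to 2 genes called higher and 2 lower per candidate with the largest log2 ratios; Sgs3, Eig71Ea, tai and Smr were added as examples after their values were seen. Likeness used log2(CPM + 0.5) of genes averaging at least 5 CPM. Members and lists were chosen with earlier results of these data known. Other scalings, filters, folds, start windows and leaving out each candidate were tried.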

Additional observations from a re-analysis of the deposited data

How the results depend on the processing

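No called member reversed its direction under any setting run. No paired analysis was possible because each genotype had 1 library. With plain CPM, the median over all genes shifted on the log2 scale by -0.30 (C2), -0.27 (C5), -0.20 (C1), -0.13 (C3) and 0.12 (C4). With TMM factors from genes with at least 10 CPM in each library it shifted by -0.16 (C1), -0.14 (C5) and -0.13 (C3); these shifts are the construction of the setting. Members called higher in C2 were then 0 with plain CPM and 1 with those TMM factors, and 1 with RPKM or a mean CPM of at least 5. With a fold of at least 1.5, members higher were 2 in C1, 3 in C3 and 2 in C4, and members lower 5 in C4; with a fold of at least 3, members higher were 0 in C2 and 0 in C3. Among the 9 members with several starts, starts called higher were 0 in C1 with DESeq2 size factors, plain CPM and those TMM factors, 2 in C2 with plain CPM, and in C5 0 with plain CPM and 1 under the 3 other scalings, chosen after seeing the data. With starts joined within 2000 bases, which left 21 measured starts of genes with several, 0 were higher in C1 and 1 in C5. Single transcripts of the same 9 genes, Hr39 left out, were also taken, and 48 were measured. Of these, 2 were higher and 1 lower in C1, 22 lower in C2 and 22 lower in C4. In C3 7 were higher and 18 lower, and in C5 5 were higher and 2 lower. Eip74EF-RA, Eip74EF-RC and Eip74EF-RE had identical values but were counted singly, as were Hr3-RA and Hr3-RH. No share over all single transcripts stands beside these counts, so they give no result about the members.

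Over all genes, a fold of at least 1.5 called 1477 (C1), 1768 (C2), 1629 (C3), 2543 (C4) and 1335 (C5) higher, and 913 lower in C4. A fold of at least 3 called 243, 547, 304, 202 and 214 higher in C1 to C5 and 133 lower in C4. A mean CPM of at least 5 left 1165 (C1), 1354 (C2), 1480 (C3) and 1211 (C5) lower, and 597 higher in C4. Genes higher in C4 were 1690 with no filter and 1562 with plain CPM, and in C5 343 with plain CPM. In the fit of all candidates, DESeq2 called 40 higher and 21 lower. Leaving out each candidate in turn, edgeR called 0 to 49 genes higher and 0 to 1897 lower, the upper values without C4; the cause was not tested. Counts of 0 in the upstream Eip78C start limit that fold to a bound.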

Other observations

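A br transcript with an implied length of 3119 bases matched no annotated br transcript and so had no start; it was at 27.3 CPM (C1), 0.187 (C2) and 69.7 (C5) and under 3 counts in C3 and C4, against 4.05 CPM in Control. Within Hr39, the transcripts Hr39-RB and Hr39-RD held 30.5% and 14.9% of the RPKM of the gene in C3, against 15.3% and 3.18% in Control, while the whole gene met no call. Within Eip74EF, the proximal transcript Eip74EF-RB had 208 CPM in C2 and 14.8 CPM in C3, against 69.5 CPM in Control, while its neighbour Eip74EF-RD had 23.5 CPM in C2 and 37.8 CPM in C3, against 21.7 CPM in Control. These single-transcript values rest on the sharing of reads upstream and were not tested.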
